A study of Homo sapiens with 8 samples.

Results

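The expression of 10 genes that beta-catenin is known to activate was followed in HepG2 cells, a human line derived from a liver tumor. The genes AXIN2, LGR5, NKD1, TBX3, ZNRF3, RNF43, LEF1, SP5, NOTUM and GLUL were picked by name as textbook targets of this pathway. Earlier results of these data were known when the targets were chosen. All 10 were found among the 17561 genes of the deposited table. Cells had received by transfection either pGRHL2, which encodes flag-tagged GRHL2, a transcription factor of epithelia, or the control plasmid pcDNA3, and RNA was collected 48 h later. There were 4 libraries per plasmid, numbered 1 to 4, which the study describes as independent biological replicates. GRHL2 was driven by the EEF1A1 promoter and its construct also encoded a green fluorescent protein, so that the plasmids were not matched outside the insert. Both groups shared the cell line and a medium with serum, insulin and dexamethasone. Transfection was transient, and in bulk RNA a change in some of the cells cannot be told apart from a smaller change in all of them.

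In the Wnt pathway, beta-catenin is normally kept low by a cytoplasmic destruction complex built on APC and axins, in which the kinases GSK3 and CK1 mark it for degradation. WNT proteins bound to Frizzled and LRP receptors stop this complex, and beta-catenin then enters the nucleus and activates genes together with TCF/LEF factors. Many of its targets encode inhibitors of the pathway and thereby form a feedback loop. In the liver the pathway is most active in hepatocytes around the central vein, where GLUL, AXIN2, LGR5 and TBX3 are expressed. HepG2 cells are known to carry a heterozygous deletion in CTNNB1, the gene of beta-catenin, that removes the phosphorylation sites used for degradation.

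Values are log2 expression levels from the rlog transformation, divided by transcript length, which allows levels to be set side by side between genes. Differences are given as pGRHL2 minus pcDNA3 in log2 units. The rlog draws values towards the mean of the gene, most at low counts, which damps differences and SDs of weakly expressed genes. Within each gene, averaging a pGRHL2 library with the pcDNA3 library of the same number gave 1 value for all 4 numbers, so that the data hold 4 pair differences per gene and a library that is high in 1 group has a mirrored partner in the other. The transfected gene checked the labels, with GRHL2 levels of 16.22 to 16.87 with pGRHL2 against 6.61 to 7.25 with pcDNA3. The 8 hepatocyte or hepatoma markers examined, AFP and ALB among them, had mean log2 levels from 9.61 to 17.11, and 0 of 8 were called in the comparison of plasmids. Of markers for other cells, 2 of 4 endothelial, 1 of 4 leukocyte and 2 of 3 fibroblast genes were in the table, with mean log2 levels of 1.91 to 5.82 and 0 called. The depth behind each value is unknown, because read counts were not analysed here.

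Most targets were strongly expressed. In pcDNA3 libraries, the highest mean log2 level was that of NOTUM, at 11.14 ± 0.04 (SD, n = 4), followed by AXIN2 at 10.83 ± 0.07 and SP5 at 10.69 ± 0.11. TBX3, GLUL and NKD1 came next with mean log2 levels of 10.32, 10.32 and 10.18, then LGR5 with 9.63, ZNRF3 with 8.81 and RNF43 with 7.98. LEF1 was far below the others, at 2.59 ± 0.03. Among all genes of the table, AXIN2 stood at percentile 93.1 of the mean level, LGR5 at 84.0, RNF43 at 64.0 and LEF1 at 22.2. The pcDNA3 values of AXIN2 and SP5 overlapped, as did those of TBX3 and GLUL and of GLUL and NKD1, whereas the other neighbours in this order had ranges that did not overlap. Since replicate means had been removed from the values, these SDs leave out differences between replicate numbers.

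The comparison of plasmids addressed whether the targets moved when GRHL2 was expressed. AXIN2, SP5, TBX3 and NOTUM were lower with pGRHL2 in 4 of 4 pairs, RNF43 and LEF1 were higher in 4 of 4 pairs, and ZNRF3, LGR5, NKD1 and GLUL went in both directions. None of these differences passed the test. With limma and the replicate number as a block, 0 of 10 targets had an adjusted p under 0.05, compared with 2.19% of all 17561 genes (1.69% higher and 0.501% lower). At that share, 10 targets are too few for 0 calls to be informative. An unadjusted p under 0.05 was found for 5 of 10 targets, compared with 16.0% of all genes. Of these, RNF43 and LEF1 were higher, against 9.17% of all genes, and AXIN2, SP5 and TBX3 were lower, against 6.78%. The groups did not overlap for 6 of 10 targets and for 24.0% of all genes, with 4 targets lower against 10.5% of all genes and 2 higher against 13.4%. With mirrored pairs, groups without overlap and 4 of 4 pairs in 1 direction are the same statement for any gene, and not separate findings.

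All targets but LEF1 had a mean log2 level of at least 5, as had 10858 genes of the table, so that the 9 were also set against these. Of them 0 were called, against 1.42% of the expressed genes (0.672% higher and 0.746% lower), a share at which 0 of 9 is not informative either. An unadjusted p under 0.05 was found for 4 of 9, against 15.0%, with 1 higher against 5.65% and 3 lower against 9.31%. Groups without overlap were found for 5 of 9, against 22.5%, with 1 higher against 8.96% and 4 lower against 13.6%. The median difference of the 10 targets was -0.032, while that of all genes was 0.002 and that of the expressed genes was -0.010. Per pair, the median over the targets was -0.041, 0.071, -0.042 and -0.155, so that its sign rested on the pairs used, and it was 0.008 without replicate 4. With 4 pairs, a two-sided exact test that flips the signs of a single gene cannot give a p below 1 in 8. Without the block, limma called 6 of 10 targets, namely AXIN2, SP5, TBX3 and NOTUM as lower and RNF43 and LEF1 as higher, compared with 18.5% of all genes in the same fit (10.4% higher and 8.13% lower). That fit counts both libraries of a mirrored pair as independent.

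**Figure D1:**
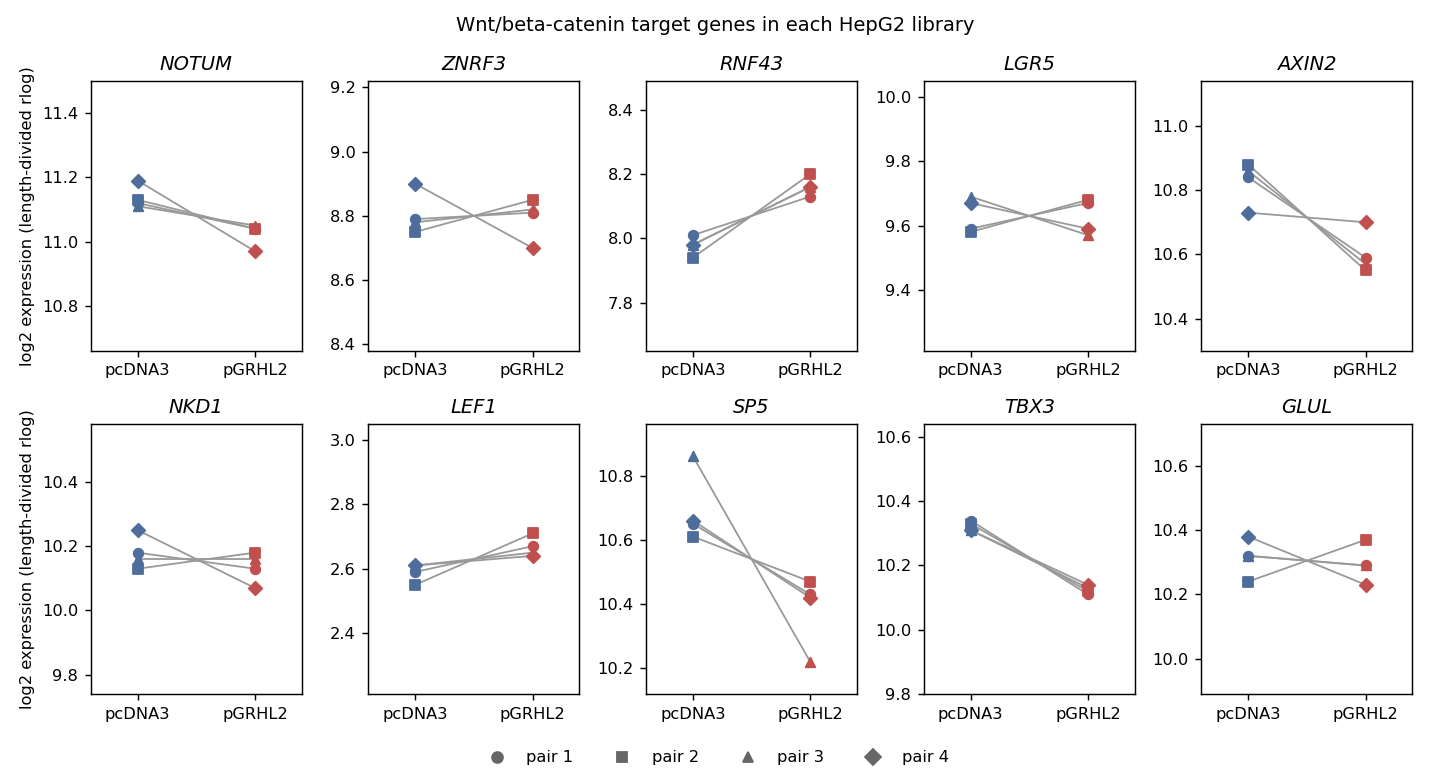
Log2 expression (vertical axis, length-divided rlog) of each of the 10 target genes in the pcDNA3 and pGRHL2 libraries (horizontal axis), with a symbol for each of pairs 1 to 4 and lines joining the libraries of a pair. Every panel spans the same range of log2 units. AXIN2, SP5, TBX3 and NOTUM slope downwards in 4 of 4 pairs, whereas RNF43 and LEF1 slope upwards in 4 of 4 pairs.

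SP5, a zinc finger factor of the Sp family that is a direct target of beta-catenin and restrains other targets, differed most. It is located on chromosome 2 (hg38, plus strand, 170715337 to 170718078). Its log2 levels in pGRHL2 libraries 1 to 4 were 10.43, 10.47, 10.22 and 10.42, and those in pcDNA3 libraries 1 to 4 were 10.65, 10.61, 10.86 and 10.66. All pGRHL2 libraries lay below all pcDNA3 libraries, with the widest gap in pair 3. The mean difference was -0.31 ± 0.23 (SD, n = 4 pairs), a fold of 0.808, with a 95% confidence interval of -0.50 to -0.12 (adjusted p = 0.106 by limma). The pair differences were -0.22, -0.13, -0.64 and -0.23, and leaving out replicate 3 brought the mean to -0.20 (adjusted p = 0.184 by limma).

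RefSeq promoter windows of 300 bases, 250 before and 50 from a transcription start, were listed for RNF43, LEF1, SP5 and GLUL, with 6 windows in all. For NOTUM, ZNRF3, LGR5, AXIN2, NKD1 and TBX3 no window was listed. The windows were searched on both strands for letters that TCF/LEF factors bind, namely ATCAAAG or TTCAAAG and also AACAAAG or TACAAAG. The motif of Grainyhead factors, searched on both strands as well, was AACCGGT. At least 1 TCF/LEF match occurred in 13.8% of the 35116 windows of the table, and at least 3 occurred in 0.179%. SP5 held 3 matches, which began 148, 109 and 84 bases before its start and did not overlap each other. RNF43, LEF1 and GLUL held none. The windows of LEF1 and GLUL lay inside the annotated spans of these genes, so that bases before those spans were not searched. The Grainyhead motif was in 0.772% of all windows and in those of 0 of the 4 targets. The bases upstream of SP5 are shown for the position of its 3 matches, and those of RNF43 are shown as a target without one. AXIN2, TBX3 and NOTUM, also lower with pGRHL2 in all pairs, had no window, so that matches could not be compared with direction. The stretches are chr2:170715087-170715336 on the plus strand and chr17:58417596-58417784 on the minus strand of GRCh38.p14, each ending before the first annotated exon base, and capitals mark motif matches, the middle one of SP5 being ATCAAAG read on the other strand.
SP5: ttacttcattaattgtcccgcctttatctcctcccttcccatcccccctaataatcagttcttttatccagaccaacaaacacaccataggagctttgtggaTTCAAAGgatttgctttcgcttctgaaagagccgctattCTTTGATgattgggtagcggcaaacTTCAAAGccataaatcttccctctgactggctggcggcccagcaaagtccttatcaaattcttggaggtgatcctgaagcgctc
RNF43: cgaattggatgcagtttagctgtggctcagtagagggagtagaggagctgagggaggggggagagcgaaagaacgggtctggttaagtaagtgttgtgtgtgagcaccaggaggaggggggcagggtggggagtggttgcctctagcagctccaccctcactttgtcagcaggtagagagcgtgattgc
A match describes letters in a window and not binding.

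TBX3, a T-box factor that is needed for liver development, had the most even difference. The gene is located on chromosome 12 (minus strand, 114670255 to 114684175). Its log2 levels were 10.11, 10.12, 10.13 and 10.14 in pGRHL2 libraries 1 to 4 and 10.34, 10.33, 10.31 and 10.31 in the same-numbered pcDNA3 libraries. The groups were apart by more than the spread within each. Their mean difference was -0.20 ± 0.03 (SD, n = 4 pairs), with a 95% confidence interval of -0.32 to -0.08 (adjusted p = 0.0972 by limma), the smallest adjusted p of the 10 targets. In limma, the variance of a gene is moderated towards that of genes at a similar level.

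LEF1, a partner through which beta-catenin reaches DNA, was weakly expressed. It is located on chromosome 4 (minus strand, 108047545 to 108168956) and shares some exon bases with the antisense gene LEF1-AS1. The log2 levels were 2.67, 2.71, 2.65 and 2.64 with pGRHL2 and 2.59, 2.55, 2.61 and 2.61 with pcDNA3. The groups did not overlap, but by a narrow margin in pairs 3 and 4. LEF1 differed by 0.08 ± 0.06 (SD, n = 4 pairs), with a 95% confidence interval of 0.02 to 0.14 (adjusted p = 0.179 by limma). Among the 6703 genes with a mean level under 5, 4135 had a positive difference.

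**Figure D2:**
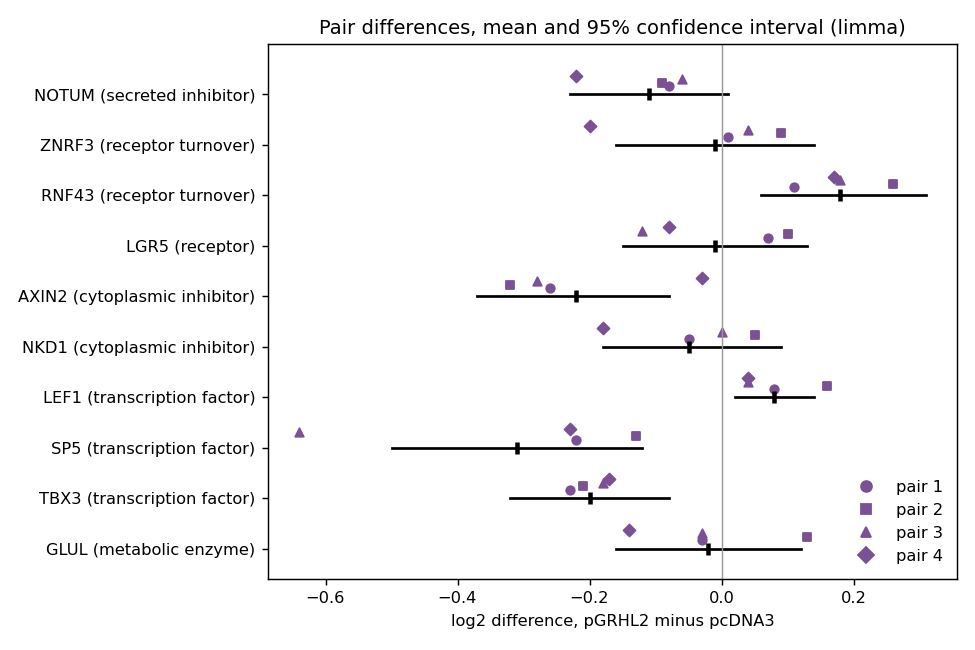
Log2 difference, pGRHL2 minus pcDNA3 (horizontal axis), for the 10 target genes with their roles (vertical axis). Colored symbols are the 4 pair differences, the vertical tick is their mean and the black line is the 95% confidence interval from limma. The interval lies below 0 for AXIN2, SP5 and TBX3 and above 0 for RNF43 and LEF1, before adjustment for the number of genes tested.

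AXIN2, the scaffold that rebuilds the destruction complex once the pathway is active, is widely used as its readout. The gene is located on chromosome 17 (minus strand, 65528563 to 65561648). Its log2 levels were 10.59, 10.55, 10.57 and 10.70 in pGRHL2 libraries 1 to 4 and 10.84, 10.88, 10.86 and 10.73 in pcDNA3 libraries 1 to 4. Pairs 1 to 3 were alike and pair 4 showed little difference, as the pair differences were -0.26, -0.32, -0.28 and -0.03. AXIN2 differed by -0.22 ± 0.13 (SD, n = 4 pairs), a fold of 0.856, with a 95% confidence interval of -0.37 to -0.08 (adjusted p = 0.113 by limma). The smallest adjusted p in a fit that left out a pair was 0.0615 by limma, with a difference of -0.29 without replicate 4. Of its exon bases, 25.3% are shared with an unnamed gene on the same strand. The methods name the union mode of HTSeq, and the fate of reads over these bases also depends on the authors' annotation, which was not examined.

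NKD1, which binds Dishevelled proteins and restrains the signal, is located on chromosome 16 (plus strand, 50548396 to 50649249). Its log2 levels were 10.13, 10.18, 10.16 and 10.07 with pGRHL2 and 10.18, 10.13, 10.16 and 10.25 with pcDNA3. The groups overlapped. NKD1 differed by -0.05 ± 0.10 (SD, n = 4 pairs), with a 95% confidence interval of -0.18 to 0.09.

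NOTUM, a secreted enzyme that strips the lipid from WNT proteins and so inactivates them, is located on chromosome 17 (minus strand, 81952507 to 81961840). The log2 levels were 11.04, 11.04, 11.05 and 10.97 with pGRHL2 and 11.12, 11.13, 11.11 and 11.19 with pcDNA3. The groups were close but did not overlap. NOTUM differed by -0.11 ± 0.07 (SD, n = 4 pairs), with a 95% confidence interval of -0.23 to 0.01 (adjusted p = 0.357 by limma).

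RNF43 and ZNRF3 are related ubiquitin ligases that remove Frizzled receptors from the cell surface. RNF43 is located on chromosome 17 (minus strand, 58353676 to 58417595). Its log2 levels were 8.13, 8.20, 8.16 and 8.16 with pGRHL2 and 8.01, 7.94, 7.98 and 7.98 with pcDNA3. All pGRHL2 libraries lay above all pcDNA3 libraries. The mean difference was 0.18 ± 0.06 (SD, n = 4 pairs), a fold of 1.13, with a 95% confidence interval of 0.06 to 0.31 (adjusted p = 0.143 by limma). In the annotation used here, 69.1% of the exon bases of RNF43 are shared with other genes, namely TSPOAP1-AS1 on the opposite strand and an unnamed gene on the same strand. Counting was without strand, and strand would not separate the gene on the same strand, so that the value of RNF43 is uncertain.

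ZNRF3 is located on chromosome 22 (plus strand, 28883572 to 29057488). Its log2 levels were 8.81, 8.85, 8.82 and 8.70 with pGRHL2 and 8.79, 8.75, 8.78 and 8.90 with pcDNA3. It was higher with pGRHL2 in pairs 1 to 3 and lower in pair 4. The mean difference was -0.01 ± 0.13 (SD, n = 4 pairs), with a 95% confidence interval of -0.16 to 0.14, and was 0.008 after quantile normalization. Whether the related ligases differed from each other was not tested.

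LGR5, a receptor for R-spondins, which block these ligases, is located on chromosome 12 (plus strand, 71439798 to 71586310). In log2 units the levels were 9.67, 9.68, 9.57 and 9.59 with pGRHL2 and 9.59, 9.58, 9.69 and 9.67 with pcDNA3. It was higher with pGRHL2 in pairs 1 and 2 and lower in pairs 3 and 4. LGR5 differed by -0.01 ± 0.11 (SD, n = 4 pairs), with a 95% confidence interval of -0.15 to 0.13, and by 0.005 after rescaling without GRHL2.

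GLUL encodes glutamine synthetase, which makes glutamine from ammonia in the hepatocytes next to the central vein and is a usual tissue marker of beta-catenin activity in liver tumors. The gene is located on chromosome 1 (minus strand, 182378098 to 182392206). The levels, in log2 units, were 10.29, 10.37, 10.29 and 10.23 with pGRHL2 and 10.32, 10.24, 10.32 and 10.38 with pcDNA3. The groups overlapped almost fully. GLUL differed by -0.02 ± 0.11 (SD, n = 4 pairs), with a 95% confidence interval of -0.16 to 0.12, and by 0.008 after quantile normalization.

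In pair 4, the difference was below 0 for 8 of 10 targets, and NOTUM, ZNRF3, NKD1 and GLUL had their lowest difference there, at -0.22, -0.20, -0.18 and -0.14. By contrast, AXIN2 and TBX3 had their smallest decrease in pair 4, at -0.03 and -0.17. SP5 and LGR5 were lowest in pair 3, at -0.64 and -0.12. The 5 proliferation markers examined had a median difference of -0.397 in pair 4, against 0.007, 0.164 and -0.061 in pairs 1 to 3, and 0 of 5 were called. They were split in pair 4, with MKI67, TOP2A and MCM2 at -0.44, -0.40 and -0.45 but CCNB1 and PCNA at 0.02 and 0.08. Medians of other marker lists in pair 4 were 0.37 for interferon, 0.225 for stress and 0.15 for cholangiocyte markers. They were -0.118 for hepatocyte or hepatoma, -0.053 for fibroblast, -0.038 for endothelial and -0.011 for leukocyte markers. The pair 4 median was 0.001 over all genes and -0.015 over the expressed genes. The part of cell growth, or of any other marker list, in the target values was not tested.

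**Figure D3:**
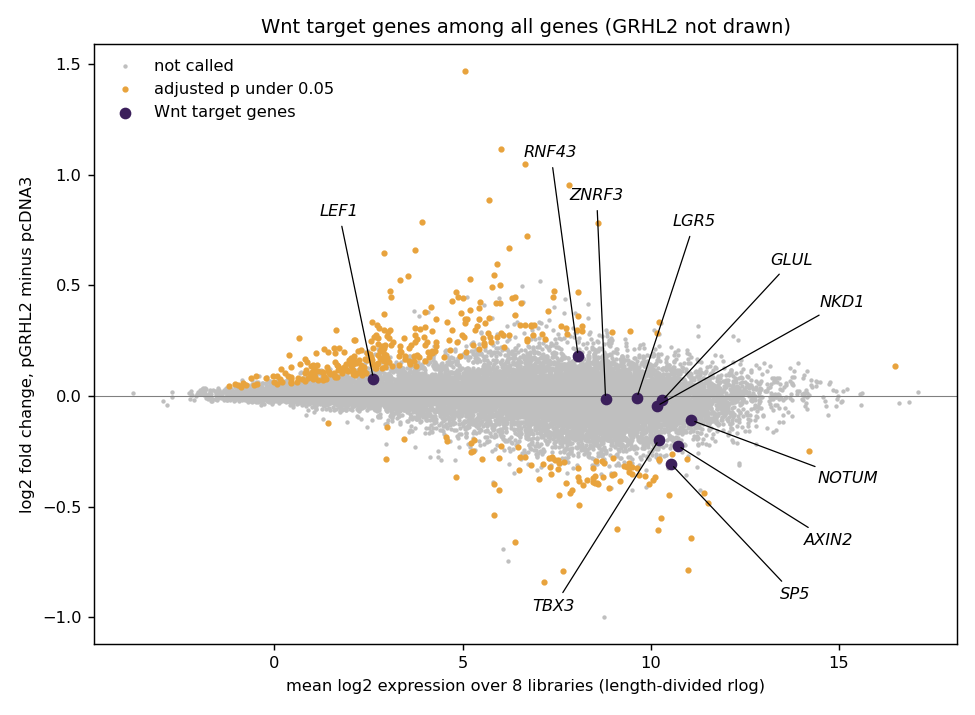
Log2 fold change, pGRHL2 minus pcDNA3 (vertical axis), against the mean log2 expression over 8 libraries (horizontal axis) for all genes but GRHL2. Orange points passed an adjusted p under 0.05, gray points did not, and the 10 target genes are drawn in purple with their names. The targets lie between -0.31 (SP5) and 0.18 (RNF43) and none is orange.

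The other genes of the pathway were compared in the same fit. Of 90 listed ligands, receptors, antagonists and signal transducers, 72 were in the table, of which 1 was called higher and 0 lower, against 2.19% called among all genes. An unadjusted p under 0.05 was found for 12 of 72, a share near the 16.0% of all genes, against which the counts by role are also to be read. The called gene was RSPO1, an R-spondin, with a mean log2 level of only 0.73. RSPO1 was higher by 0.08 ± 0.02 (SD, n = 4 pairs; adjusted p = 0.0297 by limma). Its call was lost whichever of the 4 pairs was left out (adjusted p from 0.0626 to 0.148 by limma) and with removal of trends on GC content, length and level (0.243). Direction went with level in this list. Of the 38 genes with a mean level of at least 5, 27 had a negative difference, and of the 34 below 5, 25 had a positive one, while among all genes these counts were 5951 of 10858 and 4135 of 6703.

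WNT ligands were weakly expressed, with mean log2 levels from -0.73 to 6.43 for the 13 of 19 in the table. Of these, 0 were called and 3 had an unadjusted p under 0.05. WNT7B, the most strongly expressed ligand, differed by 0.11 ± 0.11, and WNT11 by 0.12 ± 0.14. PORCN, the enzyme that attaches the lipid to WNT proteins, differed by -0.01 ± 0.08. Among 15 receptors, 0 were called and 2 had an unadjusted p under 0.05. LRP5 and LRP6, the co-receptors for WNT, differed by -0.11 ± 0.17 and -0.12 ± 0.17, each with its largest difference in pair 4, at -0.37 and -0.36.

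Of 11 secreted or surface antagonists, 0 were called and 2 had an unadjusted p under 0.05. DKK1, which captures LRP co-receptors, had a mean log2 level of 11.60 and differed by -0.03 ± 0.23. DKK4, a related antagonist and itself a target of beta-catenin, differed by -0.21 ± 0.20 and was lower in 3 of 4 pairs (adjusted p = 0.229 by limma). Of the Dishevelled proteins, which relay the receptor signal, DVL1 differed by -0.01 ± 0.19 and DVL3 by -0.17 ± 0.09. In the destruction complex, 9 of 10 genes had a negative difference, with a range of -0.16 to 0.01, and 0 were called or had an unadjusted p under 0.05. Of the 10, 8 had a mean level of at least 5, where 27 of 38 pathway genes and 5951 of 10858 of all genes were negative. APC and GSK3B, its scaffold and kinase, differed by -0.16 ± 0.22 and -0.06 ± 0.10.

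The transcript of beta-catenin itself, CTNNB1, had log2 levels from 10.94 to 11.04 with pGRHL2 and from 10.99 to 11.09 with pcDNA3. These overlapped, and the mean difference was -0.01 ± 0.09 (SD, n = 4 pairs), with a 95% confidence interval of -0.14 to 0.11. TCF7L2, a DNA-binding partner of beta-catenin in the liver, had log2 levels of 9.58, 9.53, 9.56 and 9.67 with pGRHL2 and 9.86, 9.92, 9.88 and 9.77 with pcDNA3. The pGRHL2 libraries all lay below the pcDNA3 libraries, with the narrowest gap in pair 4. TCF7L2 differed by -0.27 ± 0.13 (SD, n = 4 pairs), with a 95% confidence interval of -0.42 to -0.13 (adjusted p = 0.0718 by limma, and 0.0361 with library weights). Among the 14 genes of beta-catenin and its nuclear partners, 0 were called and 2 had an unadjusted p under 0.05.

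A further 35 genes were listed as targets of the pathway in other tissues or as markers of liver zones, of which 31 were in the table. EPHB2, an ephrin receptor known as a target in the intestine, was called higher, and ID2, an inhibitor of helix-loop-helix factors, was called lower, against 2.19% called among all genes. An unadjusted p under 0.05 was found for 5 of 31, a share near the 16.0% of all genes. EPHB2 was weakly expressed, with log2 levels of 2.93, 2.86, 2.82 and 2.87 with pGRHL2 and 2.55, 2.61, 2.66 and 2.60 with pcDNA3. Its groups did not overlap, and the difference was 0.26 ± 0.09 (SD, n = 4 pairs; adjusted p = 0.00796 by limma). The call of EPHB2 was lost with eBayes without trend (adjusted p = 0.0998 by limma). ID2 had log2 levels of 11.27, 11.26, 11.14 and 11.50 with pGRHL2 and 11.80, 11.81, 11.92 and 11.56 with pcDNA3. All pGRHL2 libraries were lower, but pair 4 differed by only -0.06. ID2 fell by 0.48 ± 0.30 on the log2 scale (SD, n = 4 pairs; adjusted p = 0.0497 by limma). This call was lost without replicate 1, 2 or 3, with adjusted p of 0.222, 0.179 and 0.152 by limma. ID2 is also known to respond to other pathways, BMP signaling among them. CCND1, a cyclin often named as a target, differed by 0.08 ± 0.12.

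Neither set of zonation genes held a call, with 0 of 10 genes from around the central vein and 0 of 8 from around the portal tract. In each, 1 gene had an unadjusted p under 0.05, against 16.0% of all genes. With 2.19% called among all genes, lists of 10 and 8 genes are too small for 0 calls to be informative. OAT and RHBG, which handle ornithine and ammonia near the central vein, differed by -0.09 ± 0.11 and 0.14 ± 0.20. Of the portal genes, ASS1 of the urea cycle differed by 0.18 ± 0.21. CDH1, the epithelial cadherin that binds beta-catenin at cell junctions, differed by 0.26 ± 0.19, with higher values in 4 of 4 pairs (adjusted p = 0.129 by limma).

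**Figure D4:**
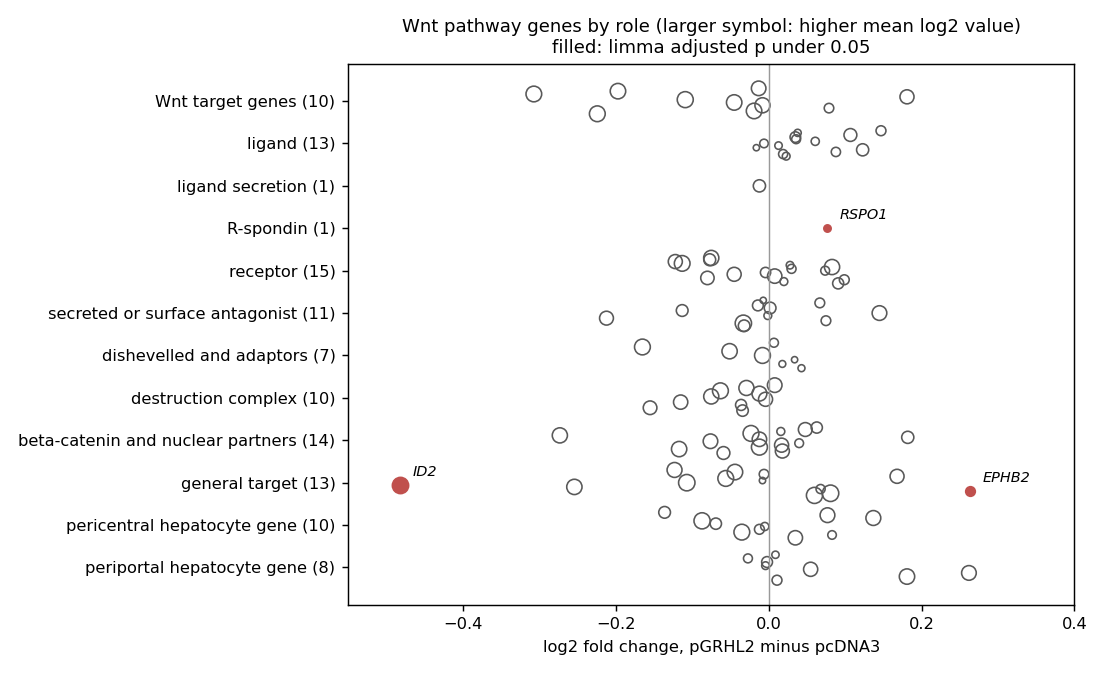
Log2 fold change, pGRHL2 minus pcDNA3 (horizontal axis), of the 10 target genes and of the other pathway and target genes by role (vertical axis, with the number of genes in the table). Each circle is a gene, larger circles have a higher mean log2 level, and filled red circles passed a limma adjusted p under 0.05, which was the case for RSPO1, EPHB2 and ID2.

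Among the other pathway and target genes in the table, those whose 4 pair differences lay nearest to those of TBX3 were DVL3, VEGFA and AXIN1. The root mean square distances were 0.08, 0.106 and 0.109 in log2 units over 4 pairs. DVL3, the growth factor gene VEGFA and the axin gene AXIN1 were each lower with pGRHL2 in 4 of 4 pairs, by means of -0.17, -0.12 and -0.12, and 0 of these 3 were called. They were picked for pair differences near those of TBX3, so that this shared direction follows from the choice and is not a result.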

How the data were processed

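Paired-end mRNA libraries of HepG2 cells, 4 per plasmid, were used. Per the methods, the authors aligned to hg38 using HISAT2, counted exon reads using HTSeq without strand, dropped genes with fewer than 10 reads in total, and divided the rlog of DESeq2 by mean transcript length. The submitters' processing notes give versions 2.2.1, 0.9.1 and 1.40.2 of these tools, and the methods name other versions of HISAT2 and DESeq2. The deposited values, although named FPKM, are on a log2 scale, since 3.71% were negative and the level of the 1754 least variable genes had a slope of -0.86 against log2 length. A stray character was removed from 1 value, and 0 columns were of other samples.

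Within each gene, means of same-numbered libraries were identical (largest spread 1e-12), so same-numbered libraries mirror each other by construction and a correlation check of the pairing is void. The replicate number was therefore a block in limma 3.58.1 (R 4.3.3; eBayes with trend; Benjamini-Hochberg over 17561 genes, threshold 0.05), so that 3 residual degrees of freedom remained instead of 6. The script was tested on simulated data in which 200 genes were changed by 0.25 log2 units. With the block, 35% of these were called and 1.41% of the calls were false. Without the block, 86.5% were called and 74.71% of the calls were false. Errors are SDs of 4 pair differences. Positions and shared exon bases are from GENCODE release 44 (hg38), and promoter windows from RefSeq (GRCh38.p14).

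The targets and gene lists were chosen with earlier results of these data known. Named besides the targets were the called genes of the other lists, in each role the gene with the highest level and the one with the largest difference at a mean level of at least 5, and the 3 genes nearest to the target with the smallest p. Alternatives were no block, robust and trend-free eBayes, library weights, rescaling without GRHL2, quantile normalization, a mean level of at least 5, splines on GC content, length and level subtracted from each pair (5 degrees of freedom, 24 genes left out), an adjusted p under 0.01, and leaving out each pair.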

Additional observations from a re-analysis of the deposited data

Results flagged for a closer look

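Among 34 genes examined, namely the targets, the other named genes and GRHL2, 3 had 1 pair difference far from the other 3, where chance gives about 1 in 20. For LRP5, pair 4 stood at -0.373 and the other pairs at -0.06 to -0.01. For CTNNB1, pair 4 stood at -0.15 and the others at 0.01 to 0.04. For VEGFA, pair 1 stood at -0.032 and the others at -0.15. The 10 target genes had no such pair.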

How the results depend on the processing

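Without the replicate block, limma called 1821 genes higher and 1427 lower, with 2 targets higher and 4 lower, 8 pathway genes higher and 4 lower, and 3 of the other target genes higher and 4 lower. The adjusted p of the targets in that fit were 0.0297 for NOTUM, 0.00294 for RNF43, 0.00851 for AXIN2, 0.019 for LEF1, 0.0165 for SP5 and 0.000824 for TBX3. With the block, 0 targets were called in any alternative. Over the fits on all 4 pairs, adjusted p in limma ranged from 0.0522 to 0.178 for AXIN2, 0.0834 to 0.227 for SP5, 0.054 to 0.165 for TBX3, 0.106 to 0.174 for RNF43, 0.0917 to 0.42 for LEF1 and 0.248 to 0.503 for NOTUM. When a replicate was left out, the ranges were 0.0615 to 0.416 for AXIN2, 0.161 to 0.293 for SP5, 0.127 to 0.401 for TBX3, 0.193 to 0.417 for RNF43, 0.183 to 0.473 for LEF1 and 0.352 to 0.638 for NOTUM. These 6 genes kept their direction in every fit run, LEF1 not being among the genes with a mean level of at least 5.

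Genes called higher numbered 4 with eBayes without trend, 503 with library weights, 495 after rescaling without GRHL2, 184 after quantile normalization, 63 with a mean level of at least 5, 149 with the block and the trends on length, level and GC content removed, 77 at an adjusted p under 0.01, and 79 to 156 when a replicate was left out. Genes called lower numbered 2 without trend, 221 with library weights, 57 after quantile normalization, 10 at an adjusted p under 0.01, and 8 to 68 when a replicate was left out. Higher pathway genes numbered 2 with robust eBayes, 3 with library weights, 3 after rescaling, and 0 without trend, after quantile normalization, with a mean level of at least 5, with trends removed, at an adjusted p under 0.01 or without any of the replicates (0 to 0). With library weights 1 pathway gene, TCF7L2, was lower. EPHB2 was not called without trend and was not among the genes with a mean level of at least 5, which left 0 higher in its list. ID2 was not called without trend, after quantile normalization or at an adjusted p under 0.01, which left 0 lower, and 0 to 1 were lower when a replicate was left out. The causes of these changes were not tested.

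The median of the targets ranged from -0.072 to 0.008 when a replicate was left out, the positive value being that without replicate 4. Small differences changed sign. With library weights, ZNRF3 was 0.003, LGR5 0.018, DVL1 0.005 and CTNNB1 0.006. After rescaling, ZNRF3 was 0.0, LGR5 0.005, PORCN 0.002, DVL1 0.005 and CTNNB1 0.002. After quantile normalization, ZNRF3 was 0.008, LGR5 0.018, GLUL 0.008, DVL1 0.02 and CTNNB1 0.01. With trends removed, LGR5 was 0.026, GLUL 0.006, DVL1 0.002 and CTNNB1 0.015. Leaving out a replicate gave ranges of -0.048 to 0.049 for ZNRF3, -0.044 to 0.029 for LGR5, -0.077 to 0.0 for NKD1, -0.068 to 0.023 for GLUL, -0.041 to 0.017 for PORCN, -0.121 to 0.047 for DKK1, -0.077 to 0.045 for DVL1 and -0.031 to 0.034 for CTNNB1. With 4 pairs and no read counts, differences of this size could not be resolved, and the removed replicate means leave the spread between replicates unmeasured.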
